A study of Mus musculus with 4 samples.

Results

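The 6 epithelial keratin genes Krt7, Krt8, Krt18, Krt19, Krt20 and Krt23 were followed in mouse liver. They were chosen by gene symbol, and all 6 were found among the 13903 genes of the deposited table, which holds 9 keratins in all. The livers came from OGT-Floxed mice (C57BL/6J background) that were given the CDE diet (a choline-deficient, ethionine-supplemented diet that injures the liver). In the groups labelled OGT-KO, the mice had received AAV8-TBG-CRE, a virus that carries the Cre recombinase behind the hepatocyte promoter TBG, and in the control groups AAV8-TBG-eGFP, so that every group carried the floxed allele, an AAV8 virus and the diet. Both genotypes were sampled at 2 times, with no recovery or 7 days into recovery. Every condition is a single mRNA-seq library (4 in all), for which the RNA of 3 mice had been pooled equally, so no value has a replicate, no test between conditions was made, and a difference between 2 libraries compares those 2 pools only. The TBG promoter acts in hepatocytes, so other liver cells were not targeted. The age and sex of the mice are not given in the sources used here.

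Keratins are the intermediate filament proteins of epithelial cells. They assemble as obligate pairs of 1 type I and 1 type II protein. Hepatocytes hold a single pair, the type II protein of Krt8 with the type I protein of Krt18, and the filaments of this pair protect the hepatocyte from mechanical and toxic stress. The cells of the bile ducts add the proteins of Krt7 (type II) and Krt19 (type I), the classical duct markers. Krt20 is a type I keratin best known from the intestinal surface, the urothelium and Merkel cells, and Krt23 is a type I keratin known as an inducible gene of stressed liver.

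The values are CPM, the reads of a gene per 1000000 reads of its library. The whole reads behind them were recovered, 22866431 in the OGT-KO-labelled library and 21257763 in the control library with no recovery, and 22567395 and 19972699 after 7 days. The limit of detection was taken as 3 reads, 0.131 to 0.150 CPM. The 95% intervals are exact (Clopper-Pearson for a level or a share, conditional for a ratio) and, like this limit, cover the error of counting and not differences between mice. Ogt, the gene targeted by the Cre virus, was at 55.3 CPM in the OGT-KO-labelled library and 64.7 CPM in the control library with no recovery, a ratio of 0.855 (0.792 to 0.924). After 7 days Ogt was at 77.7 CPM in the OGT-KO-labelled library and 55.7 CPM in the control library, a ratio of 1.40 (1.29 to 1.51). As deposited Ogt thus went against the label after 7 days, but this direction depended on the scaling of the libraries: its log2 fold change was 0.47 as deposited, 0.21 with the 100 most abundant genes left out of the totals, -0.0053 with upper-quartile and -0.20 with median-ratio scaling. With no recovery it was negative under each, from -0.93 to -0.22. Which exons are floxed is not given in the sources used here and the table holds 1 total per gene, so these values do not check the deletion, and every direction given here is between libraries as labelled. The most abundant 100 genes took 32.7% and 33.2% of the reads in the OGT-KO-labelled libraries and 42.3% and 44.5% in the control libraries.

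The type II genes lie on chromosome 15 and the type I genes, but for Krt18, on chromosome 11. In the GENCODE M21 annotation of GRCm38, Krt8 (ENSMUSG00000049382) spans 101996698 to 102004482 of chromosome 15 on the minus strand with 9 exons, and Krt18 (ENSMUSG00000023043) spans 102028180 to 102032027 on the plus strand with 7 exons. The 2 genes are next to each other at the end of the type II cluster, 23697 bases apart, and point away from each other. Krt7 (ENSMUSG00000023039) spans 101411043 to 101430313 of the same chromosome on the plus strand. Krt20 (ENSMUSG00000035775) spans 99428403 to 99438150, Krt23 (ENSMUSG00000006777) 99477974 to 99493137 and Krt19 (ENSMUSG00000020911) 100140810 to 100148665 of chromosome 11, all on the minus strand. The deposited table holds no coordinates, and the submitters' processing notes name the build GRCm39, so these positions serve only to place the genes.

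RefSeq promoters of GRCm38.p6 were matched for 5 of the 6 genes (Krt19 had no entry). They are shown for 1 gene of the hepatocyte pair, 1 duct keratin and 1 stress keratin, so that the 3 kinds of gene compared can be read side by side, and are written 5′ to 3′ on the gene's own strand, in lower case with every match to a searched motif in capitals. The Krt18 window is chr15:102027966-102028165, the bases from 250 to 51 before its start, the Krt7 window is chr15:101412153-101412402, the 250 bases before its start, and the Krt20 window is chr11:99438154-99438403 on the minus strand, the 250 bases before its start. GENCODE also places an exon of a noncoding Krt7 transcript in the Krt7 window.
Krt18: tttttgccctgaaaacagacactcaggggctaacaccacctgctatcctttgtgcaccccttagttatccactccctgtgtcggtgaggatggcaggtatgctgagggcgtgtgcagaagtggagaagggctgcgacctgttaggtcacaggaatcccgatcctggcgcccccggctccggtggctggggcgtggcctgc
Krt7: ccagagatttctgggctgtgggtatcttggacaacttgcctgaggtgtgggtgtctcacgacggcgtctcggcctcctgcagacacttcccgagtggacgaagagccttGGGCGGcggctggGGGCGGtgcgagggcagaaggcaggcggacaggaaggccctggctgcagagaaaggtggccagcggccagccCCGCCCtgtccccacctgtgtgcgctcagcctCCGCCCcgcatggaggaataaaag
Krt20: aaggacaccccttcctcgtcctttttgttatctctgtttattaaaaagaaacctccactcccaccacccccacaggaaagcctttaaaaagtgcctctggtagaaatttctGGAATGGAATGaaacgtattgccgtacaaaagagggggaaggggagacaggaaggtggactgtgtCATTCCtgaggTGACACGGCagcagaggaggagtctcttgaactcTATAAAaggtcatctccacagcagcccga

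The 7 motifs were searched on both strands of the 250 bases before each start. The box bound by the TATA-binding protein was searched as TATAAA, the box of NF-Y as CCAAT, the GC box of Sp1 as GGGCGG, the site of AP-1 as TGANTCA, the core of the antioxidant element as TGACNNNGC, the core site of TEAD factors as CATTCC and that of STAT factors as TTCCNNGAA. The Krt7 window held 4 GC boxes, which begin 141, 128, 56 and 24 bases before the start, the last 2 of them on the reverse strand. The Krt20 window held TATAAA 29 bases before the start, a TGACNNNGC match 63 bases before it and 3 CATTCC matches, 1 at 74 bases and 2 on the reverse strand at 139 and 134 bases, which overlap each other by 1 base. The windows of Krt8, Krt18 and Krt23 held none of the 7 in these letters. All starts here are those of RefSeq. GENCODE begins Krt8 140, Krt18 36, Krt23 17 and Krt7 1360 bases further upstream, so these windows lie partly or wholly inside the GENCODE genes. Over all 32851 promoter windows of the same length, 12.4% held TATAAA, 33.8% CCAAT, 32.7% GGGCGG, 6.75% TGANTCA, 10.2% TGACNNNGC, 12.6% CATTCC and 4.06% TTCCNNGAA. A match describes the letters and is not evidence of binding.

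The hepatocyte pair was several-fold higher in the OGT-KO-labelled libraries at both times. Krt8 was at 1861 CPM in the OGT-KO-labelled library and 262 CPM in the control library with no recovery, and at 1545 and 275 CPM after 7 days. Both OGT-KO-labelled libraries thus stood above both control libraries, and the control libraries were close to each other. The ratio of Krt8 between labels was 7.10 (6.91 to 7.30) with no recovery and, after 7 days, 5.61 (5.45 to 5.77). Krt18, its type I partner, was at 1479 CPM against 224 CPM with no recovery and at 1247 CPM against 254 CPM after 7 days. The ratio of Krt18 was 6.61 (6.41 to 6.82) with no recovery and, after 7 days, 4.90 (4.76 to 5.05). In bulk RNA, more cells of a type and more RNA per cell cannot be told apart, here and in all that follows.

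The duct keratins were below 2 CPM in the control libraries and above 20 CPM in the OGT-KO-labelled libraries. Krt19, the type I duct keratin, was at 28.8 CPM (659 reads) against 1.69 CPM (36 reads) with no recovery, and at 32.6 CPM (735 reads) against 1.15 CPM (23 reads) after 7 days. The ratio of Krt19 was 17.0 (12.2 to 24.5) with no recovery and, after 7 days, 28.3 (18.7 to 44.9). Krt7, the type II duct keratin, was at 21.6 CPM (495 reads) against 0.894 CPM (19 reads) with no recovery, and at 28.6 CPM (645 reads) against 1.10 CPM (22 reads) after 7 days. The ratio of Krt7 was 24.2 (15.3 to 40.6) with no recovery and, after 7 days, 25.9 (17.0 to 41.7). The wide intervals come from the 19 to 36 control reads.

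The stress keratins had the highest and the lowest ratio of the 4 minor keratins. Krt23 was at 17.4 CPM (399 reads) against 1.36 CPM (29 reads) with no recovery, and at 25.0 CPM (564 reads) against 1.55 CPM (31 reads) after 7 days. By value the lowest of the 4, its ratio was 12.8 (8.77 to 19.3) with no recovery and, after 7 days, 16.1 (11.2 to 23.9). The interval of Krt23 overlapped those of Krt19 and Krt7 at both times. Krt20 was at 28.9 CPM (660 reads) in the OGT-KO-labelled library with no recovery and at 33.7 CPM (761 reads) after 7 days. The control libraries held 0 and 1 reads of Krt20. With the 3-read limit (0.141 CPM) in place of the 0 reads with no recovery, Krt20 was at least 205-fold higher there in the OGT-KO-labelled library, and the exact interval of that ratio begins at 166. After 7 days the ratio was 674 (121 to 26637), which rests on 1 control read.

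**Figure D1:**
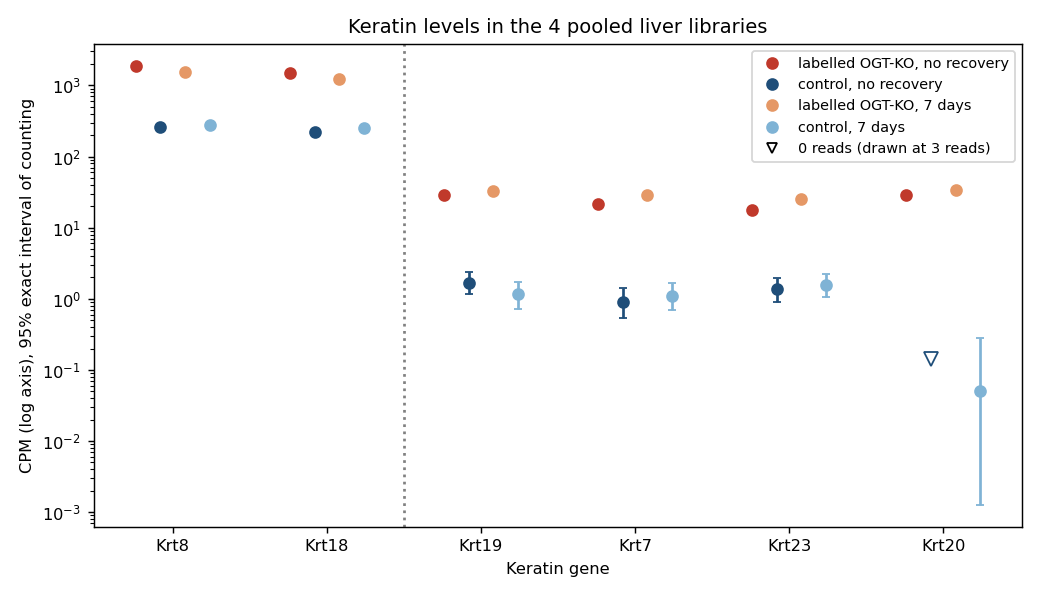
CPM (log axis) of each keratin in the 4 libraries, with 95% exact intervals of counting. Points without visible bars have intervals smaller than the point, and the open triangle is 0 reads drawn at the 3-read limit. Every keratin stood higher in both OGT-KO-labelled libraries (red and orange) than in both control libraries (blue), with Krt8 and Krt18 from 224 to 1861 CPM and the 4 others from 0 to 33.7 CPM.

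Against the other genes of the liver, Krt8 and Krt18 stood at the high end of the difference between labels. The comparison took the 8963 genes that averaged 10 CPM or more across libraries, the fold change is the difference of log2(CPM + 1), which understates the change of low genes, and a gene was called at a 2-fold difference. With no recovery 24.4% of the compared genes were called higher and 5.69% lower in the OGT-KO-labelled library, and after 7 days 22.9% higher and 4.27% lower. The same genes were counted when a binomial test of the reads was asked for as well. All 6 keratins were called higher at both times, but Krt7, Krt19, Krt20 and Krt23 were below 2 CPM in both control libraries and passed the filter only through the OGT-KO-labelled libraries, so their count is no evidence. For the pair, which is far above the filter in every library, the log2 fold change was 2.82 for Krt8 and 2.72 for Krt18 with no recovery, with 3.37% and 3.80% of the compared genes above them. After 7 days it was 2.48 for Krt8 and 2.29 for Krt18, with 6.29% and 7.06% of the compared genes above them. With no recovery the log2 fold change was 3.47 for Krt19, 3.58 for Krt7, 2.96 for Krt23 and 4.90 for Krt20. After 7 days it was 3.96, 3.82, 3.35 and 5.05 in the same order.

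The balance of higher and lower calls depended on the scaling of the libraries, and the direction of the keratins between labels did not. As deposited, the compared genes had a median log2 fold change of 0.51 (no recovery) and 0.48 (7 days), and 81.1% and 84.3% of the called genes were higher in the OGT-KO-labelled library. With upper-quartile scaling these shares were 55.2% and 62.1%, with median-ratio scaling 40.4% and 49.6%, and with the 100 most abundant genes left out of the totals 70.7% and 73.4%. Relative to the deposited medians, the log2 fold change was 2.32 for Krt8, 2.21 for Krt18, 2.96 for Krt19, 3.07 for Krt7, 2.46 for Krt23 and 4.39 for Krt20 with no recovery. With median-ratio scaling the log2 fold change was 2.10 and 1.80 for Krt8 and 2.0 and 1.61 for Krt18 at the 2 times in turn, so the choice of scaling moved the pair by far more than the counting intervals of its ratios. Under every scaling and pseudocount tried, the 60 recomputed fold changes of the 6 keratins between labels were positive, from 1.27 to 8.18 on the log2 scale.

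**Figure D2:**
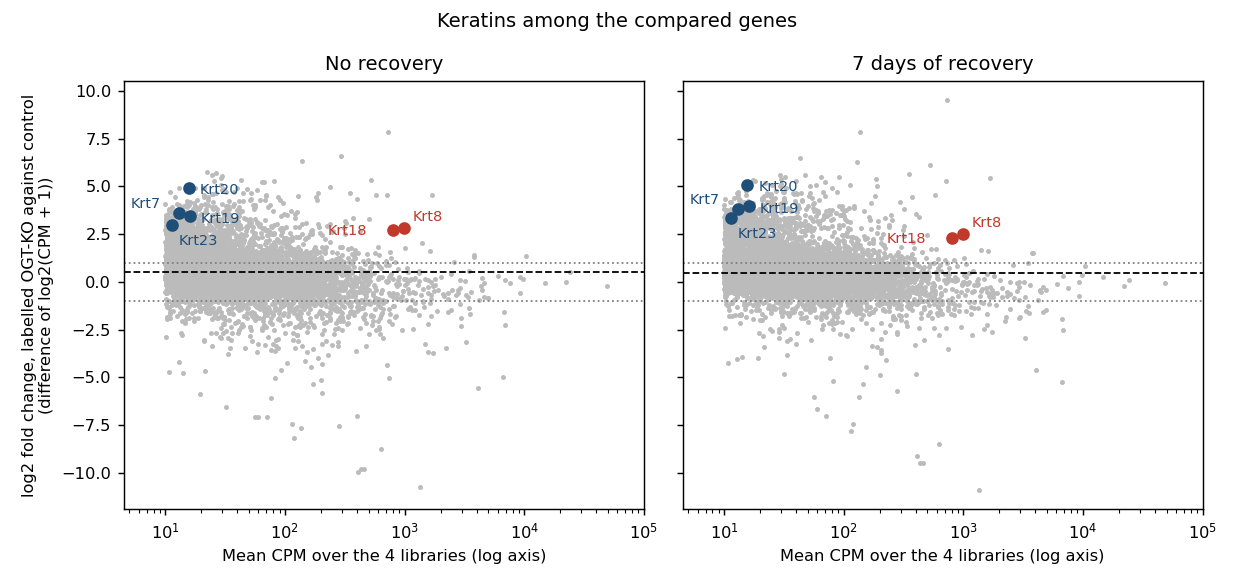
Log2 fold change of the OGT-KO-labelled library against the control library (vertical axis) by mean CPM over the 4 libraries (log axis) for the 8963 compared genes (grey), with no recovery (left) and after 7 days (right). Dashed lines are the medians (0.51 and 0.48), dotted lines the 2-fold threshold, red points Krt8 and Krt18 and blue points the 4 minor keratins. All 6 keratins lie above the upper dotted line in both panels, but the 4 minor keratins passed the filter only through the OGT-KO-labelled libraries.

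The 4 minor keratins were then set against the pair within each library, which needs no scaling between libraries. Per 1000 reads of Krt8 plus Krt18, Krt19 had 8.63 reads in the OGT-KO-labelled library and 3.49 in the control library with no recovery, and 11.7 and 2.17 after 7 days. Relative to the pair, Krt19 was thus 2.48 times (1.77 to 3.57) higher with no recovery and 5.36 times (3.55 to 8.52) higher after 7 days. Krt7 had 6.48 against 1.84 reads per 1000 with no recovery and 10.2 against 2.08 after 7 days. That was 3.52 times (2.23 to 5.90) and 4.92 times (3.22 to 7.91) higher relative to the pair.

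By value Krt23 differed least from the pair. It had 5.22 against 2.81 reads per 1000 pair reads with no recovery and 8.95 against 2.93 after 7 days, which is 1.86 times (1.27 to 2.82) and 3.05 times (2.13 to 4.54) higher relative to the pair. Krt20 had 8.64 and 12.1 reads per 1000 in the OGT-KO-labelled libraries, against 0 in the control library with no recovery and 0.0945 after 7 days. Relative to the pair Krt20 was at least 29.7 times higher with no recovery by the 3-read limit (the exact interval begins at 24.1) and 128 times (22.9 to 5053) higher after 7 days, the latter from 1 control read. Each of these intervals excludes 1, but they cover the counting of 2 pools only. On the log2(CPM + 1) scale the fold change of the minor keratins less that of the pair was 0.69 for Krt19, 0.80 for Krt7, 0.19 for Krt23 and 2.12 for Krt20 with no recovery, and 1.57, 1.42, 0.95 and 2.65 after 7 days. With 10 CPM added in place of 1, all 8 of these differences turned negative, from -1.48 to -0.26, since 10 CPM is several times the control level of the minor keratins.

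**Figure D3:**
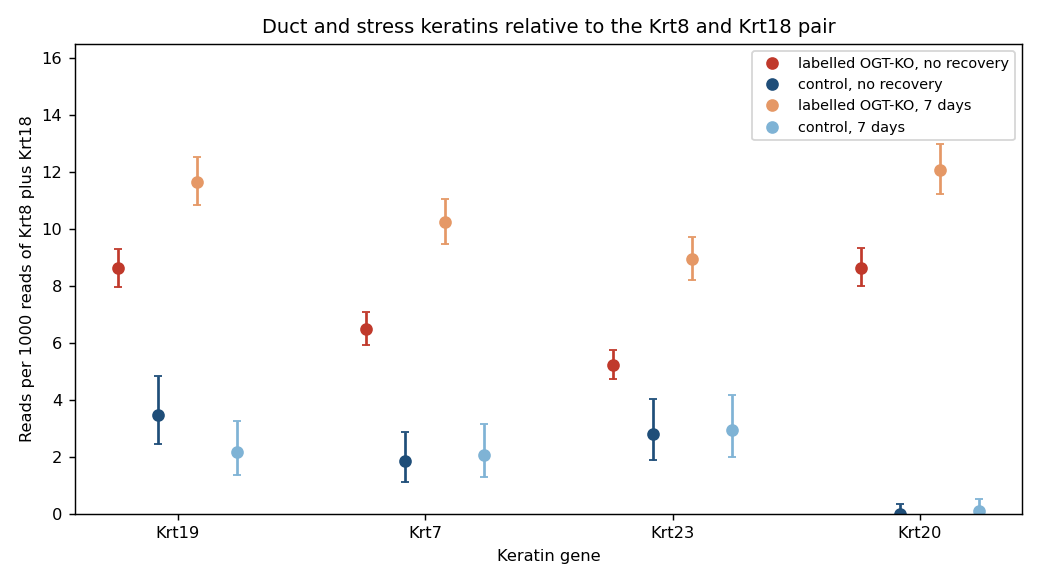
Reads of each minor keratin per 1000 reads of Krt8 plus Krt18 (vertical axis from 0) in the 4 libraries, with 95% exact intervals of counting. Both OGT-KO-labelled libraries stand above both control libraries for each gene, the library after 7 days highest, from 8.95 for Krt23 to 12.1 for Krt20.

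By share, the pair remained almost all of the keratin RNA counted. The 6 genes together took 0.344% of the reads of the OGT-KO-labelled library and 0.0490% of those of the control library with no recovery, and 0.291% and 0.0533% after 7 days. Krt8 and Krt18 made up 97.2% and 95.9% of the reads of the 6 genes in the OGT-KO-labelled libraries and 99.2% and 99.3% in the control libraries. The share of the 4 minor keratins was 2.82% (2.70 to 2.93) against 0.807% (0.644 to 0.998) with no recovery and 4.12% (3.97 to 4.27) against 0.723% (0.571 to 0.902) after 7 days. The minor share was higher in both OGT-KO-labelled libraries than in both control libraries.

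To compare genes with each other, levels were divided by coding length (1470 bases for Krt8, 1269 for Krt18, 1209 for Krt19, 1371 for Krt7, 1266 for Krt23 and 1293 for Krt20). With no recovery, in the OGT-KO-labelled library, Krt8 was at 1266 and Krt18 at 1166 CPM per coding kilobase, followed by Krt19 at 23.8, Krt20 at 22.3, Krt7 at 15.8 and Krt23 at 13.8. Per coding length, Krt19 and Krt20 did not differ beyond their counting intervals, nor did Krt7 and Krt23. Per kilobase of the longest transcript, Krt19 was at 18.3 and Krt20 at 15.0, and Krt7 at 5.29 and Krt23 at 11.1. These comparisons thus depend on the length chosen. After 7 days the order and both overlaps were the same, with 1051, 983, 26.9, 26.1, 20.8 and 19.7 CPM per coding kilobase. In the control library with no recovery, Krt8 at 178 and Krt18 at 176 CPM per coding kilobase overlapped, and Krt19 at 1.40, Krt23 at 1.08 and Krt7 at 0.652 each overlapped with its neighbour. In the control library after 7 days, Krt18 at 200.4 stood above Krt8 at 187, and Krt23 at 1.23, Krt19 at 0.953 and Krt7 at 0.803 CPM per coding kilobase overlapped in turn. Krt20 was last in both control libraries.

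The balance of Krt8 and Krt18 differed little between libraries. The ratio of Krt8 reads to Krt18 reads was 1.26 (1.24 to 1.28) in the OGT-KO-labelled library and 1.17 (1.13 to 1.22) in the control library with no recovery, and 1.24 (1.22 to 1.26) and 1.08 (1.04 to 1.12) after 7 days. Between labels this ratio differed by a factor of 1.07 (1.03 to 1.12) with no recovery and, after 7 days, 1.14 (1.10 to 1.19), while each gene alone differed by a factor of 4.90 to 7.10. Per coding length the ratio of Krt8 to Krt18 was 1.09, 1.01, 1.07 and 0.934 in the same order of libraries. Per length of all exons it was 0.923, 0.859, 0.909 and 0.794, so which gene of the pair was more abundant depends on the length chosen. Summed by type and per coding length, type II over type I keratins of the 6 gave 1.05 and 1.0 with no recovery and 1.02 and 0.928 after 7 days.

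Over the 7 days of recovery the pair and the minor keratins differed in direction in the OGT-KO-labelled libraries. There, Krt8 after 7 days was 0.830 times (0.819 to 0.842) and Krt18 0.843 times (0.830 to 0.856) its level with no recovery. The minor keratins were higher after 7 days, Krt19 by 1.13 times (1.02 to 1.26), Krt7 by 1.32 times (1.17 to 1.49), Krt23 by 1.43 times (1.26 to 1.63) and Krt20 by 1.17 times (1.05 to 1.30). Relative to the pair, Krt19 was 1.35 times (1.21 to 1.5), Krt7 1.58 times (1.40 to 1.78), Krt23 1.71 times (1.5 to 1.95) and Krt20 1.40 times (1.26 to 1.55) higher after 7 days. None of the 6 reached a 2-fold difference, against a background of 1.04% of the compared genes called higher and 0.435% called lower. Taken as 4 genes together, the minor keratins went from 29.0 to 42.9 reads per 1000 reads of the pair.

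In the control libraries the keratins were close to level over the same days. Krt8 was 1.05 times (1.01 to 1.09) and Krt18 1.14 times (1.09 to 1.18) its level with no recovery. The intervals of Krt19 at 0.680 times (0.385 to 1.18), Krt7 at 1.23 times (0.637 to 2.41) and Krt23 at 1.14 times (0.663 to 1.96) included 1, with 19 to 36 reads behind each value, so a difference was not detectable at this depth. Krt20, with 0 and then 1 read, gives no ratio. None of the keratins was called, against a background of 0.245% called higher and 0.96% called lower. The 4 minor keratins together had 8.13 reads per 1000 pair reads with no recovery and 7.28 after 7 days.

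**Figure D4:**
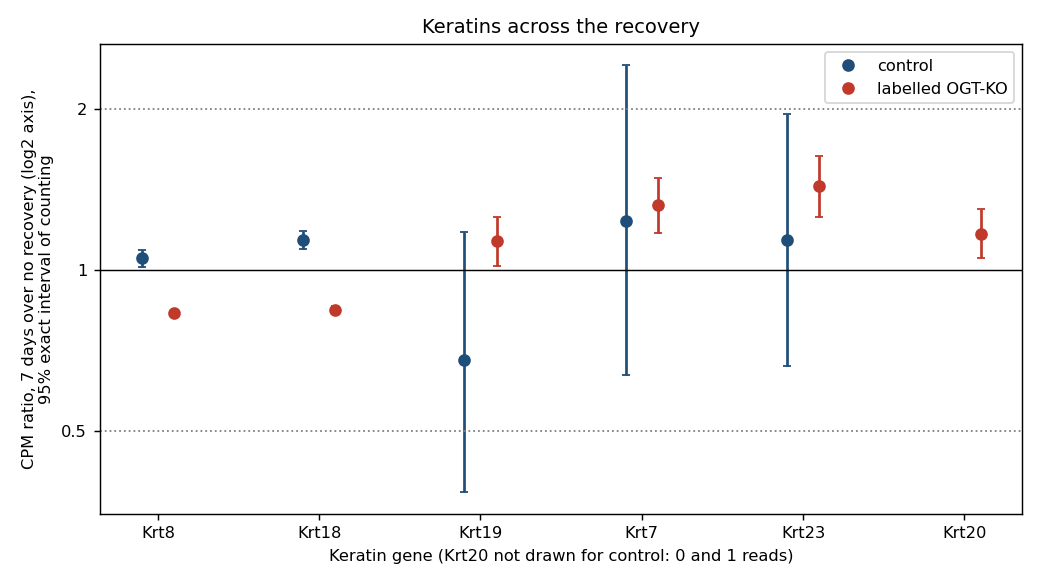
Ratio of CPM after 7 days to CPM with no recovery for each keratin (log2 axis) in the control libraries (blue) and the OGT-KO-labelled libraries (red), with 95% exact intervals of counting. Krt8 and Krt18 lie above 1 in blue (1.05 and 1.14) and below 1 in red (0.830 and 0.843), and all points are between the 2-fold lines. Krt20 is not drawn for the control libraries, which held 0 and 1 reads of it.

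Of the other 3 keratins of the table, Krt10, the type I keratin of differentiated epidermis, was at 2.06 and 2.04 CPM in the OGT-KO-labelled libraries and 2.12 and 2.0 CPM in the control libraries. Its 40 to 47 reads a library gave overlapping intervals. Krt17, a type I keratin of injured epithelium, was at 1.53 CPM (35 reads) and 1.86 CPM (42 reads) in the OGT-KO-labelled libraries, and at 0 reads in both control libraries. Krt80, a type II keratin, was at 2.71 and 3.46 CPM in the OGT-KO-labelled libraries and at 0.376 CPM (8 reads) and 0.150 CPM (3 reads) in the control libraries. None of these 3 reached the mean of 10 CPM asked of a compared gene.

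Genes with other functions beside the keratin clusters were read for context and were chosen by position after their values were seen. The non-keratin genes of the table that flank the type II cluster, Atg101 and Eif4b, had log2 fold changes between labels of 0.43 and 0.02 with no recovery and 0.34 and -0.17 after 7 days. Those that flank the type I cluster, Smarce1 and Eif1, had 0.27 and 0.22 with no recovery and 0.38 and -0.18 after 7 days. All 4 were inside the 2-fold range in which the 6 keratins were not. Krt10, a type I keratin of chromosome 11 below the filter, was also inside it (-0.03 and 0.02).

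The genes whose 4 values were most like each keratin were found by the Euclidean distance between centred log2(CPM + 1) values, which over 4 libraries describes a shape and no more. Krt8 and Krt18 were 0.17 apart, Krt19 and Krt7 0.37 apart, and Krt20 was 1.28 or more from every other keratin. Nearest to Krt8 were Creb3l1 (0.097), G6pdx (0.11) and Tmprss2 (0.11), and nearest to Krt18 were Lpin3 (0.071), Acot9 (0.11) and Cdc42se1 (0.12). Nearest to Krt19 were Pmepa1 (0.11), Col16a1 (0.15) and Tagln2 (0.15), and nearest to Krt7 were Epb41l1 (0.13), H2-Q1 (0.14) and Smoc2 (0.15). Nearest to Krt23 were Ano1 (0.089), Bex3 (0.16) and Stmn1 (0.17), and nearest to Krt20 were Tspan8 (0.12), Emp1 (0.16) and Fbn1 (0.18).

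Of the genes whose proteins anchor keratin filaments, some were called higher in the OGT-KO-labelled libraries. In the list of keratin partners and desmosome genes, 10 of 19 were compared, and 6 were called higher, 0 lower and 4 neither at each time, against 24.4% and 22.9% of all compared genes called higher. Their median log2 fold change was 1.07 with no recovery and 1.04 after 7 days, against 0.51 and 0.48 over all compared genes. With median-ratio scaling 2 and 1 of them were called, and Plec after 7 days and Dsc2 and Eppk1 at both times were below 2-fold. Ppl (periplakin) was at 120 against 16.0 CPM with no recovery and 108 against 14.3 CPM after 7 days. Plec, a linker of intermediate filaments, was at 562 against 170 CPM and at 407 against 196 CPM, so its log2 fold change was 1.72 and then 1.05. Dsc2, a desmosomal cadherin, had log2 fold changes of 1.10 and 1.54, and Eppk1 (epiplakin), a keratin-binding protein, of 1.41 and 1.04.

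Keratins with ubiquitin and p62, the protein of Sqstm1, form the Mallory-Denk bodies of injured hepatocytes. Of that list 13 of 16 genes were compared, of which 4 were called higher and 1 lower with no recovery and 4 higher and 0 lower after 7 days, a share near the 24.4% and 22.9% of all compared genes. The medians were 0.69 and 0.70, near the 0.51 and 0.48 of all compared genes. With median-ratio scaling the higher calls were 1 and 2. Cryab, a small heat shock protein, was at 22.3 against 4.05 CPM with no recovery and 26.9 against 2.65 CPM after 7 days. Cryab passed the filter only through the OGT-KO-labelled libraries. Tgm2, a transglutaminase that cross-links keratins, had log2 fold changes of 1.48 and 2.10, and Ywhaz, a 14-3-3 protein, of 1.56 and 1.39.

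Some other intermediate filament genes were higher too. Of 14 listed, 6 were compared and 5 were called higher and 0 lower at each time (24.4% and 22.9% of all compared genes), with medians of 1.80 and 2.54. Of the 6, 3 (Vim, Lmna and Lmnb2) had 10 CPM in a control library. Nes, Lmnb1 and Des passed the filter only through the OGT-KO-labelled libraries, so the count is no evidence. Vim, the vimentin of mesenchymal cells, was at 155 against 19.1 CPM with no recovery and 138 against 13.2 CPM after 7 days. Nes (nestin) had log2 fold changes of 2.86 and 3.79, Lmnb1 (lamin B1) of 1.66 and 2.68, and Des (desmin), a stellate and muscle filament gene, of 1.93 and 2.41. Lmna (lamin A/C) had log2 fold changes of 1.61 and 1.39, and Lmnb2 (lamin B2) of -0.05 and 0.93. Of the 3 filament genes with 10 CPM in a control library, Vim and Lmna were thus called higher at both times and Lmnb2 at neither.

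Of the list of squamous and stressed epithelium, 3 of 15 genes were compared, and none of the 3 had 10 CPM in a control library, so their calls are given as values only. Ly6d, a surface protein of squamous and immature cells, was at 182 against 1.32 CPM with no recovery and 366 against 0.601 CPM after 7 days. Sprr1a, a cornified envelope precursor, was at 57.5 against 0.376 CPM with no recovery and at 58.3 against 0.250 CPM after 7 days. Epcam, an epithelial adhesion protein, was at 64.2 against 1.55 CPM and at 82.6 against 2.35 CPM.

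Among 20 factors known to act on keratin or liver epithelial genes, 16 were compared. With no recovery 8 were called higher, 3 lower and 5 neither, and after 7 days 7 higher, 1 lower and 8 neither, with medians of 1.05 and 0.98. Of all compared genes, 24.4% and 22.9% were called higher and 5.69% and 4.27% lower. Of the 16, 15 had 10 CPM in a control library. Klf6, at 9.13 and 7.16 CPM in the control libraries, passed the filter only through the OGT-KO-labelled libraries. Its log2 fold changes were 3.32 and 3.01. Tead1, which binds DNA for YAP, had log2 fold changes of 2.79 and 2.39, Ets2 of 2.53 and 2.41, and Sox9, a factor of duct and progenitor cells, of 2.59 and 2.32. The 3 called lower with no recovery, named after their values were seen, were Onecut1, Foxa1 and Hnf4a, factors of hepatocyte identity, at -1.78, -1.57 and -1.34, of which Onecut1 was also called after 7 days (-1.59). Under median-ratio scaling, 6 and 7 were called higher and 4 and 4 lower.

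Markers of duct, stellate and Kupffer cells were higher in the OGT-KO-labelled libraries, as the keratins were, and those of other cell types were mixed or too low to compare. Some genes stand in more than 1 list (such as Epcam, Sox9, Hnf4a and Des). Of 15 duct markers, all in the table, 11 were compared and 10 were called higher, 0 lower and 1 neither at each time, with medians of 4.04 and 4.29. Only 3 of the 11 had 10 CPM in a control library. The sum of the 15 was 1457 and 1925 CPM in the OGT-KO-labelled libraries and 89.0 and 114 CPM in the control libraries, where Sctr and Ggt1 were among those at 0 reads after 7 days. Spp1 (osteopontin) was at 977 against 41.0 CPM with no recovery and 1245 against 52.1 CPM after 7 days. Cd24a had log2 fold changes of 4.80 and 5.08, and Cldn4, a tight junction gene, of 4.43 and 4.40.

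Some hepatocyte markers were lower in the OGT-KO-labelled libraries. All 14 were compared, and 0 were called higher, 6 lower and 8 neither at each time (5.69% and 4.27% of all compared genes were called lower), with medians of -0.89 and -0.86 and with 11 and 9 lower under median-ratio scaling. Their sum was 74079 and 87259 CPM in the OGT-KO-labelled libraries and 106133 and 111508 CPM in the control libraries. None was at 0, and Alb (albumin) was at 41362 against 47845 CPM with no recovery and 51507 against 54435 CPM after 7 days, so the liver label held in every library. Cyp2e1, a perivenous enzyme, was at 586 against 5235 CPM with no recovery and 849 against 6470 CPM after 7 days. Cyp2f2, a periportal enzyme, had log2 fold changes of -2.48 and -2.77, Serpina1a of -2.23 and -1.68 and Apoa1 of -1.60 and -1.97. No compared hepatocyte marker was called higher in the libraries in which Krt8 and Krt18 were. Which cells the reads of the pair came from was not tested.

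Of 7 stellate and fibroblast markers, all compared, 7 were called higher at each time, with medians of 3.94 and 4.0. Of all compared genes, 24.4% and 22.9% were called higher, with medians of 0.51 and 0.48. Of the 7 markers, 5 had 10 CPM in a control library. Their sum was 2928 and 3767 CPM in the OGT-KO-labelled libraries and 126 and 92.2 CPM in the control libraries. Col1a1 had log2 fold changes of 5.32 and 6.09, Col1a2 of 4.67 and 5.66, Col3a1 of 4.56 and 5.30 and Acta2 of 3.94 and 4.0. Of 4 Kupffer cell markers 3 were compared and 3 called higher at each time (1 and 3 under median-ratio scaling), beside the same 24.4% and 22.9%. The sums of the 4 were 285 and 192 CPM against 109 and 39.8 CPM. Adgre1 had log2 fold changes of 1.93 and 2.78, Vsig4 of 1.68 and 2.43 and Clec4f of 1.21 and 2.05.

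Of 5 endothelial markers 2 and 1 were called higher (0 and 1 under median-ratio scaling), too few to set apart from the 24.4% and 22.9% of all compared genes, with Cdh5 at log2 fold changes of 1.34 and 1.73, and sums of 296 and 218 CPM against 171 and 118 CPM. None of the 7 mesothelial markers in the table reached the filter, and their sum was 17.2 and 29.4 CPM in the OGT-KO-labelled libraries against 6.35 and 5.96 CPM in the control libraries. Of the 8 intestinal, stomach, gallbladder and pancreas markers in the table, 3 were compared and 0 were called higher, with 0 and 1 lower. Of all compared genes, 5.69% and 4.27% were called lower. The 3 compared, Fabp2, Lgals4 and Cela1, had log2 fold changes of 0.31, -0.27 and -0.45 with no recovery. After 7 days these were 0.12, -0.36 and -1.12. The sum of the 8 was 94.6 and 79.6 CPM in the OGT-KO-labelled libraries against 74.8 and 75.0 CPM in the control libraries. Muc13 and Cdh17 of that list, named after their values were seen, were at 0 reads in both control libraries. In the OGT-KO-labelled libraries they were at 1.92 and 2.79 CPM (Muc13) and at 10.3 and 3.90 CPM (Cdh17). Vil1 was at 5.99 and 9.93 CPM in the OGT-KO-labelled libraries against 0.188 and 0.551 CPM in the control libraries. Tff2 was at 1.27 and 0.886 against 0 and 0.0501 CPM, and Tff1 at 1.14 and 1.37 against 1.22 and 1.40 CPM. All of these were below the filter, so the calls of this list leave them out. The 3 T, B and plasma cell markers summed to 1.10 to 4.81 CPM. The part of duct, mesothelial, mesenchymal or other cells in the keratin values was not tested.

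**Figure D5:**
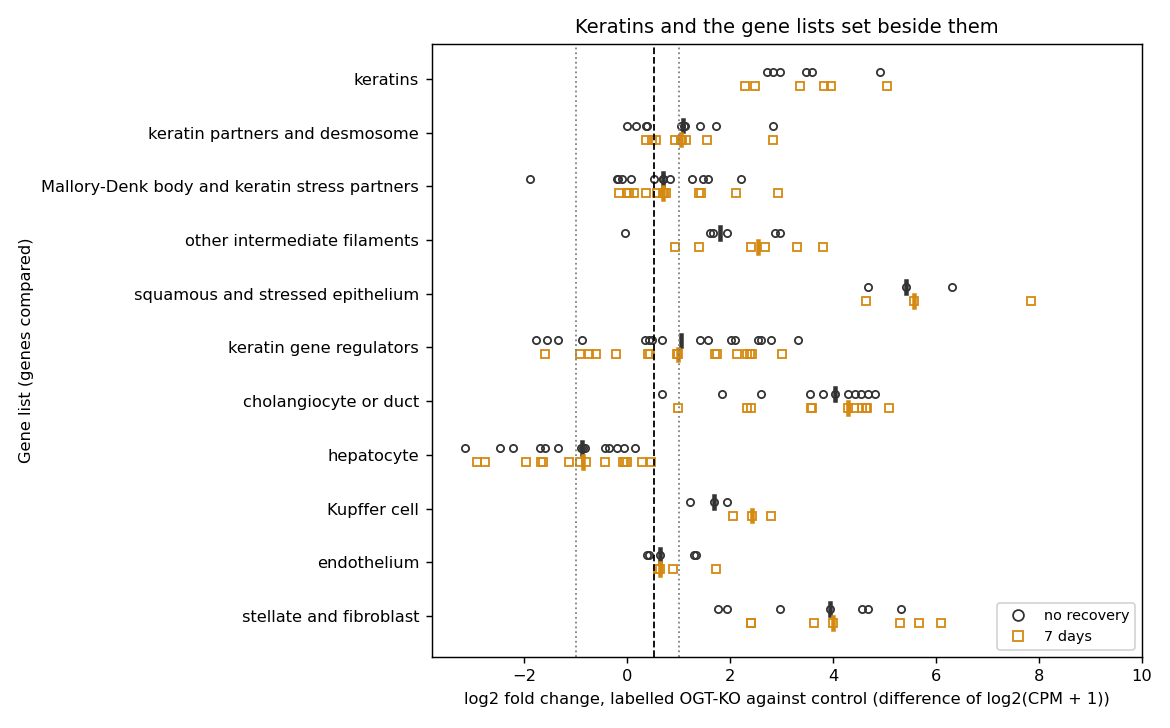
Log2 fold change between labels (horizontal axis) of every compared gene of each list, with no recovery (black circles) and after 7 days (orange squares). Thick ticks are list medians, not drawn for the keratins, the dashed line is the median of all compared genes with no recovery (0.51) and dotted lines are the 2-fold threshold. The 6 keratins lie between 2.29 and 5.05, above the median of the keratin partners (1.07 and 1.04). The medians are 4.04 and 4.29 for the duct list, 3.94 and 4.0 for the stellate and fibroblast list, and -0.89 and -0.86 for the hepatocyte list. Krt7, Krt19, Krt20, Krt23 and most duct markers passed the filter only through the OGT-KO-labelled libraries.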

How the data were processed

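Total liver RNA was isolated with TRIzol, and mRNA libraries were made with a Tecan kit and sequenced on 2 lanes. The submitters' processing notes name STAR, DESeq2 and GRCm39, with no version or role. Although named for DESeq2, the values deposited by the authors are CPM: each library sums to 1000000, and 100% of the values are whole multiples of 1 read (tolerance 0.05 read), so whole reads were recovered. A count model on those reads was not run: with 1 library per condition, a fit of label and time would have to take their interaction as the error. Fold changes are differences of log2(CPM + 1) over genes that averaged 10 CPM or more, called at 2-fold, and 2 libraries were compared for each of 4 comparisons. Exact intervals (95%) came from the recovered reads (Python 3.11.15, scipy 1.17.1). The calling script was tested on simulated data. The keratins and all gene lists were chosen with earlier results of these data known. Named genes were the keratins, other keratins with a mean of at least 1 CPM, up to 4 genes per list called in 1 direction at both times with the largest mean change, list markers such as Alb, and 3 nearest genes per keratin. Other gene symbols were named after their values were seen. How reads of near-identical copies were counted is not given in the sources used here, so the levels of Krt8 and Krt18, which have pseudogenes, and of Serpina1a and H2-Q1, which belong to gene families, are uncertain to that extent.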

Additional observations from a re-analysis of the deposited data

Results flagged for a closer look

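The effect of recovery went in opposite directions in the 2 labels for several genes, with both counting intervals excluding no difference. Only the keratins, Ogt and the genes named from the lists for their large differences were looked at. The share over all compared genes was not counted, so this number of genes has no background. None of these differences was tested, since each condition has 1 library, and that of Ly6d rests on control levels of 1.32 and 0.601 CPM. The log2 effect in the OGT-KO-labelled libraries less that in the control libraries was -0.34 for Krt8 and -0.43 for Krt18, both of which were lower after 7 days under the OGT-KO label and higher under the control label. It was -0.67 for Plec and -0.36 for Apoa1, which showed the same 2 directions as deposited, but Apoa1 was level or higher after 7 days under the OGT-KO label (0.0052 and 0.032) with upper-quartile and median-ratio scaling. It was 0.44 for Dsc2, 0.72 for Cryab, 1.53 for Ly6d, 0.78 for Col1a1, 0.99 for Col1a2 and 0.74 for Col3a1, which were higher after 7 days under the OGT-KO label and lower under the control label. As deposited, Ogt was lower in the OGT-KO-labelled library with no recovery and higher in that after 7 days, so that its log2 fold change between labels differed by 0.70 between the times. With upper-quartile and median-ratio scaling its log2 fold change after 7 days was -0.0053 and -0.20. The other 9 genes kept both directions under each scaling.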

How the results depend on the processing

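The direction of the 6 keratins between labels held in every recomputed fold change, but the comparison of the minor keratins with the pair depended on the pseudocount. With 10 CPM added, the log2 fold change less that of the pair was -1.03 for Krt19, -1.22 for Krt7, -1.48 for Krt23 and -0.80 for Krt20 with no recovery, and -0.44, -0.58, -0.78 and -0.26 after 7 days. With 0.1 CPM added it was 1.23, 1.67, 0.80 and 5.40 with no recovery, and 2.31, 2.18, 1.53 and 5.42 after 7 days. With no pseudocount, a choice added after the data were seen, it was 1.31, 1.82 and 0.90 for Krt19, Krt7 and Krt23 with no recovery, and 2.42, 2.30, 1.61 and 7.00 with Krt20 after 7 days. The ratio of Krt8 to Krt18 by longest transcript or by all exons was 0.923 and 0.909 in the OGT-KO-labelled libraries and 0.859 and 0.794 in the control libraries, and the rank of 4 keratins in both OGT-KO-labelled libraries and of 2 in the control library with no recovery moved with these lengths. A mean of at least 50 CPM left 2 keratins called at each time, by construction of the filter. The genes called between labels numbered 2695 with no recovery, and 1781 with 10 CPM added, 5200 with no filter, 876 at a mean of 50 CPM and 855 at 4-fold. After 7 days they numbered 2433, and 4953 with no filter, 784 at a mean of 50 CPM and 875 at 4-fold. Between times in the control libraries they numbered 108, and 165 with 0.1 CPM, 33 with 10 CPM, 165 with no filter, 42 at a mean of 50 CPM and 5 at 4-fold. Between times in the OGT-KO-labelled libraries they numbered 132, and 57 with 10 CPM, 288 with no filter, 54 at a mean of 50 CPM and 8 at 4-fold. Of 792 recomputed list counts, 706 stayed within 1.5 times. No paired analysis was possible because each condition has 1 library and the labels carry no replicate numbers, and no library could be left out for the same reason. Depth limits the control values of Krt7, Krt19, Krt20 and Krt23, which rest on 0 to 36 reads.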
